A study of Mus musculus with 2 samples.

Results

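The genes described here are 5 fibrillar collagens and 5 genes of collagen processing and binding, picked by name: Col1a1, Col1a2, Col3a1, Col5a1, Col5a2, P4ha1, P4ha3, Plod2, Serpinh1 and Sparc. All 10 had a row among the 27998 genes of both libraries. They were measured by droplet 3′ single-cell RNA-seq in cells scraped from the inner surface of the aorta of C57BL6/J mice, with 1 library from an old mouse (18 months) and 1 from a young mouse (8 weeks). Both groups carried no allele or agent that the labels name, and both had been prepared with trypsin after the adventitia, the outer coat of the vessel, had been cut away. The preparation was made for endothelium, so the fibroblasts in it are those that came along. Each age is a single library, so the ages could not be compared by a test. The intervals below cover counting error only and not the spread between animals, and age cannot be told apart from animal, preparation and sequencing.

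The old library held 19171045 unique molecular identifiers (UMIs, each standing for 1 captured transcript) in 3408 barcodes, and the young library 12576023 UMIs in 1366 barcodes. After filtering, 3330 old and 1359 young cells were left. Of these, 2424 old and 1095 young cells were called endothelial cell (EC)-like and 572 old and 239 young cells fibroblast-like, from marker lists and clusters built without the 10 genes. In fibroblast-like cells the 9 fibroblast markers reached from Pdgfra (26.4% of old and 66.9% of young cells with a UMI) to Dcn (100% of old and 100% of young). In EC-like cells the 8 endothelial markers reached from Emcn (14.6% of old and 32.1% of young) to Pecam1 (99.96% of old and 100% of young). Each class also held UMIs of the other's markers, Pecam1 in 69.9% of old and 67.8% of young fibroblast-like cells and Mfap5 in 75.2% of old and 83.2% of young EC-like cells. Fibroblast-like cells fell into a cluster with the marker Dact2 (511 old and 124 young cells) and a cluster with the marker Gdf10 (61 old and 115 young cells). EC-like cells fell into a Coch-type (514 old and 451 young cells) and an Isl1-type (1910 old and 644 young cells), each made of clusters held almost wholly by 1 library (93.9 to 97.1% old cells in 3 clusters and 5.19% and 0.948% in the others), so values within EC-like types come from different clusters in the 2 libraries. Old cells were shallower, with a median of 4830 UMIs in old and 8440 UMIs in young fibroblast-like cells. There were 11 barcodes that both libraries shared. Levels are given as counts per 1e6 UMIs of the class in that library (CPM), counted at the 3′ end and so not scaled by transcript length.

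Fibrillar collagens are the rope-like proteins that give the vessel wall its tensile strength. Each chain is a long run of Gly-X-Y triplets, and 3 chains wind into a triple helix, because only glycine is small enough for the crowded centre. Type I collagen is built of Col1a1 and Col1a2 chains, type III of Col3a1 chains alone, and type V, which starts fibrils and limits their width, of Col5a1 and Col5a2 chains. Inside the cell, P4ha1 and P4ha3 are catalytic subunits of prolyl 4-hydroxylases, which modify prolines in the Y position and so make the helix stable at body temperature. Plod2 hydroxylates lysines of the chain ends for cross-linking, Serpinh1 (Hsp47) is a chaperone that binds the folded helix, and Sparc is a secreted protein that binds collagen outside the cell. In the artery wall, fibroblasts of the adventitia and smooth muscle cells are the known makers of types I and III.

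The repeat that all 5 chains share is read from their coding exons (GENCODE vM21 transcripts, build GRCm38). One exon of each is shown because its length and its codon order are the signature of a fibrillar chain. Each stretch is the first exon of 54 bases inside the helix, in the direction of the transcript, with the glycine codon (GGN) that opens each triplet in capitals; a GGN codon in another position of a triplet stays in lower case.
Col1a1: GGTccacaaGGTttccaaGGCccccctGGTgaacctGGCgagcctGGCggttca
Col1a2: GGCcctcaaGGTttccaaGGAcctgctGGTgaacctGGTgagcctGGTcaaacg
Col3a1: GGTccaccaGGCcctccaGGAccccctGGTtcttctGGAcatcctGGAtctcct
Col5a1: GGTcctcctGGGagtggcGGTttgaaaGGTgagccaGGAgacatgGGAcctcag
Col5a2: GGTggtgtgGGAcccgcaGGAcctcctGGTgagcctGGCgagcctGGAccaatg
These are exon 8 of 51 of Col1a1 (chr11:94939904-94939957, + strand), exon 8 of 52 of Col1a2 (chr6:4515481-4515534, + strand), exon 6 of 51 of Col3a1 (chr1:45325360-45325413, + strand), exon 15 of 66 of Col5a1 (chr2:27965251-27965304, + strand) and exon 10 of 54 of Col5a2 (chr1:45422386-45422439, - strand). Every exon shown holds 6 triplets and begins with a complete glycine codon. The unbroken run of triplets was 338 long in Col1a1, 339 in Col1a2, 344 in Col3a1, 338 in Col5a1 and 339 in Col5a2. All exons that lie whole within these runs had a length that is a multiple of 9 bases, and exons of 54 bases made up 21 of 41 in Col1a1, 23 of 42 in Col1a2, 24 of 42 in Col3a1, 29 of 47 in Col5a1 and 23 of 42 in Col5a2. A proline codon (CCN) stood in the third position of the triplet, the position that prolyl 4-hydroxylases act on, in 41.6% of the triplets of Col3a1, 34.3% of Col1a1, 34.0% of Col5a1, 32.4% of Col5a2 and 27.7% of Col1a2. The last 500 transcript bases, where a 3′ library is read, shared no stretch of 50 bases with another gene's transcripts for 9 of the 10 genes. In P4ha3, 6 of 451 such stretches were shared.

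In fibroblast-like cells all 5 fibrillar collagens had lower levels in the old library. Their summed level was 4589 CPM in old and 9633 CPM in young fibroblast-like cells, a log2 ratio of -1.07 (95% interval -1.10 to -1.04). Col1a1 was at 909 CPM (2731 UMIs) in old and 2324 CPM (4781 UMIs) in young cells, the lowest ratio of the 9 genes with 100 or more UMIs, at a log2 of -1.35 (-1.42 to -1.29). Col3a1 was at 1523 CPM in old and 3221 CPM in young cells, a log2 ratio of -1.08 (-1.13 to -1.03). Col1a2, the chain with the most UMIs, was at 1902 CPM in old and 3629 CPM in young cells, a log2 ratio of -0.93 (-0.98 to -0.88). The type V chains gave fewer UMIs. Col5a1 had 113 CPM in old and 223 CPM in young cells, a log2 ratio of -0.97 (-1.18 to -0.77). Col5a2 had 141 CPM in old and 237 CPM in young cells, a log2 ratio of -0.75 (-0.94 to -0.56). The plot of levels by class shows these values.

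**Figure D1:**
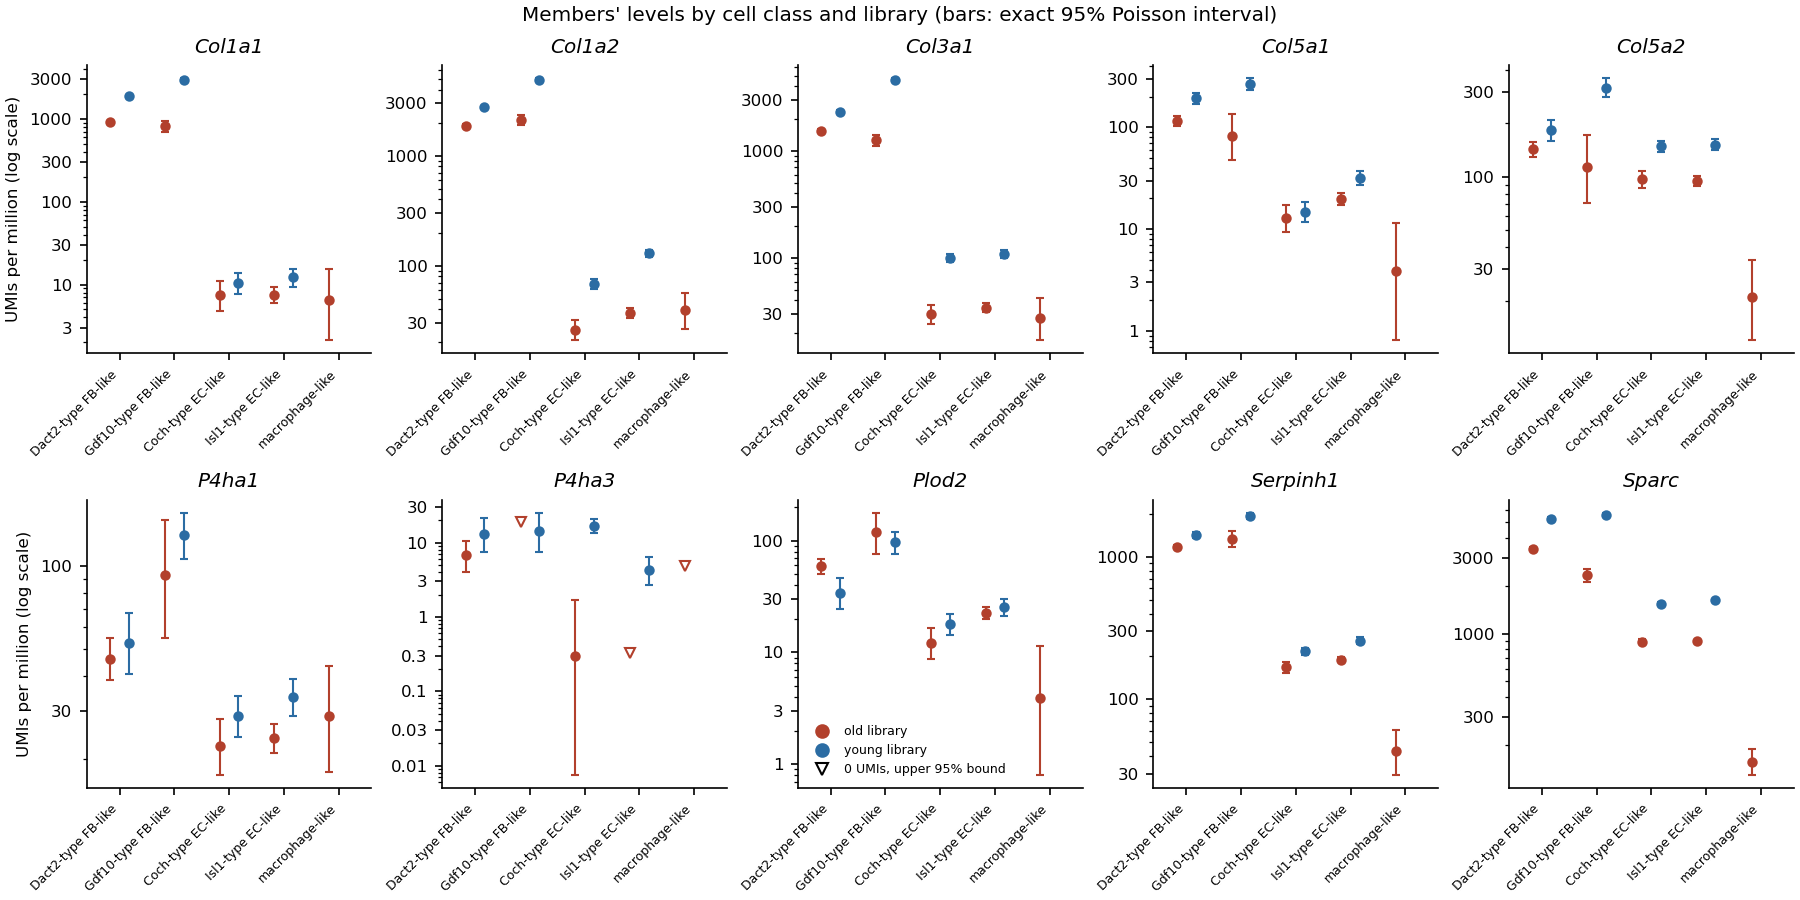
Level of each of the 10 genes in CPM (log scale, a separate range in each panel) in Dact2-type and Gdf10-type fibroblast-like (FB-like) cells, Coch-type and Isl1-type EC-like cells and macrophage-like cells, old library in red and young library in blue, with exact 95% Poisson intervals. Macrophage-like cells are drawn for the old library only. Col1a1, Col1a2 and Col3a1 stand far higher in fibroblast-like than in EC-like cells, whereas Col5a2 lies between 94.4 and 317 CPM in the 8 fibroblast-like and EC-like units, and triangles mark 0 UMIs.

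The processing genes were less uniform. Sparc was at 3342 CPM in old and 5382 CPM in young fibroblast-like cells, a log2 ratio of -0.69 (-0.73 to -0.65). P4ha1 was at 49.2 CPM (148 UMIs) in old and 83.6 CPM (172 UMIs) in young cells, a log2 ratio of -0.76 (-1.09 to -0.44). Serpinh1 was at 1181 CPM in old and 1629 CPM in young cells, a smaller difference with a log2 ratio of -0.46 (-0.53 to -0.39). Plod2 was at 63.2 CPM (190 UMIs) in old and 59.3 CPM (122 UMIs) in young cells, and its log2 ratio of 0.09 had an interval on both sides of 0 (-0.24 to 0.43). P4ha3 was close to the limit of detection, with 19 UMIs in old and 28 UMIs in young fibroblast-like cells.

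Of the 9 genes with 100 or more UMIs in fibroblast-like cells, 7 were lower by 1.5-fold or more in the old library and 0 were higher. Over all 5606 genes with as many UMIs, 10.4% were lower by that much and 4.53% were higher. At 2-fold, 2 of the 9 were lower (Col1a1 and Col3a1) and 0 higher, where 2.66% of all genes were lower and 1.59% higher. The median log2 ratio was -0.76 over the 9 genes and -0.09 over all 5606. The genes were not drawn at random, and the 9 fibroblast marker genes of the free-RNA list given below were lower as well, with 5 of 9 past 1.5-fold and a median of -0.73. Several other measures differed between the 2 sets of fibroblast-like cells. The 8 endothelial markers summed to 916 CPM in old and 439 CPM in young fibroblast-like cells, with none of the 8 at 0 in either library. The 5 erythroid markers summed to 1348 CPM in old and 25.8 CPM in young fibroblast-like cells. The 6 smooth muscle markers summed to 63.6 CPM in old cells, and to 24.3 CPM in young cells, where Myh11, Cnn1 and Des were at 0. The 7 macrophage markers summed to 119 CPM in old cells, and to 11.2 CPM in young cells, where Cd68, Adgre1 and Itgam were at 0. The 5 mesothelial markers summed to 50.6 CPM in old and 9.72 CPM in young cells, with Msln and Lrrn4 at 0 in both, Upk3b at 0 in old and Wt1 at 0 in young. The 5 pericyte markers summed to 23.0 CPM in old and 78.7 CPM in young cells, with Notch3 at 0 in both. Within subtypes the libraries were closer, at 12.1 CPM in old and 14.6 CPM in young Dact2-type cells. In Gdf10-type cells the pericyte markers summed to 181 CPM in old, where Rgs5 was also at 0, and 174 CPM in young. A set of 8 immediate-early genes (Atf3, Egr1, Fos, Fosb, Ier2, Jun, Junb and Socs3), which respond to tissue dissociation, summed to 5277 CPM in old and 7169 CPM in young fibroblast-like cells. Their part in the result was not tested, except that taking off endothelial RNA in proportion to its markers left the summed collagens at a log2 ratio of -0.98.

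Within each fibroblast subtype the collagens were lower in the old library too, by different amounts. The old library held few Gdf10-type cells, 10.7% of its fibroblast-like cells (95% exact interval 8.26 to 13.5) against 48.1% (41.6 to 54.7) in the young library, and the old ones were shallow, at a median of 2768 UMIs. In Dact2-type cells the 5 collagens summed to 4602 CPM in old and 7311 CPM in young cells, a log2 ratio of -0.67 (-0.71 to -0.63). In Gdf10-type cells they summed to 4389 CPM in old and 13079 CPM in young cells, a log2 ratio of -1.58 (-1.68 to -1.47). The subtypes were thus close to each other in the old library and far apart in the young one. The 8 immediate-early genes summed to 5630 CPM in old and 9339 CPM in young Gdf10-type cells, and to 5252 CPM in old and 5706 CPM in young Dact2-type cells. The endothelial markers summed to 956 CPM in old and 369 CPM in young Gdf10-type cells, and to 913 CPM in old and 487 CPM in young Dact2-type cells, with none of the 8 at 0. Their part in the ratios of the subtypes was not tested. Placing each cell by its own subtype markers instead of its cluster, an alternative chosen after seeing the data, brought the ratios closer, to -0.81 in Dact2-type and -1.16 in Gdf10-type cells. Weighting both subtypes equally gave -1.18 for all fibroblast-like cells.

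Single genes followed the same order in the clusters. Placed by their own markers, cells did not keep it for Col5a2 (-0.59 in Dact2-type and -0.53 in Gdf10-type cells). Serpinh1 did not keep it either (-0.43 in Dact2-type and -0.19 in Gdf10-type cells). The values that follow are by cluster unless stated. Col1a1 had a log2 ratio of -1.04 (915 CPM in old and 1886 CPM in young) in Dact2-type cells and -1.86 (817 CPM in old and 2973 CPM in young) in Gdf10-type cells. Col3a1 had -0.57 (1542 CPM in old and 2293 CPM in young) in Dact2-type cells and -1.88 (1251 CPM in old and 4598 CPM in young) in Gdf10-type cells, but -0.99 in Gdf10-type cells placed by their own markers. Sparc had -0.62 in Dact2-type and -1.26 in Gdf10-type cells. Past 1.5-fold, 3 of 9 genes were lower in Dact2-type cells (Col1a1, Col5a1 and Sparc), where 8.14% of all genes were, and 6 of 9 were lower in Gdf10-type cells, where 15.6% of all genes were lower and 6.49% higher. Plod2 was the exception. In Dact2-type cells it was at 59.4 CPM (167 UMIs) in old and 34.2 CPM (42 UMIs) in young cells, a log2 ratio of 0.80 (0.30 to 1.32), and 5.03% of all genes were higher by 1.5-fold there. In Gdf10-type cells Plod2 was at 119 CPM (23 UMIs) in old and 96.6 CPM (80 UMIs) in young cells, and the interval of its log2 ratio of 0.30 reached from -0.44 to 0.98. Placed by their own markers, Dact2-type cells had a Plod2 log2 ratio of 0.56 (0.04 to 1.09) and Gdf10-type cells 0.71 (0.09 to 1.31). Gdf10-type cells had more Plod2 than Dact2-type cells in both libraries, and they are the rarer subtype in the old one.

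**Figure D2:**
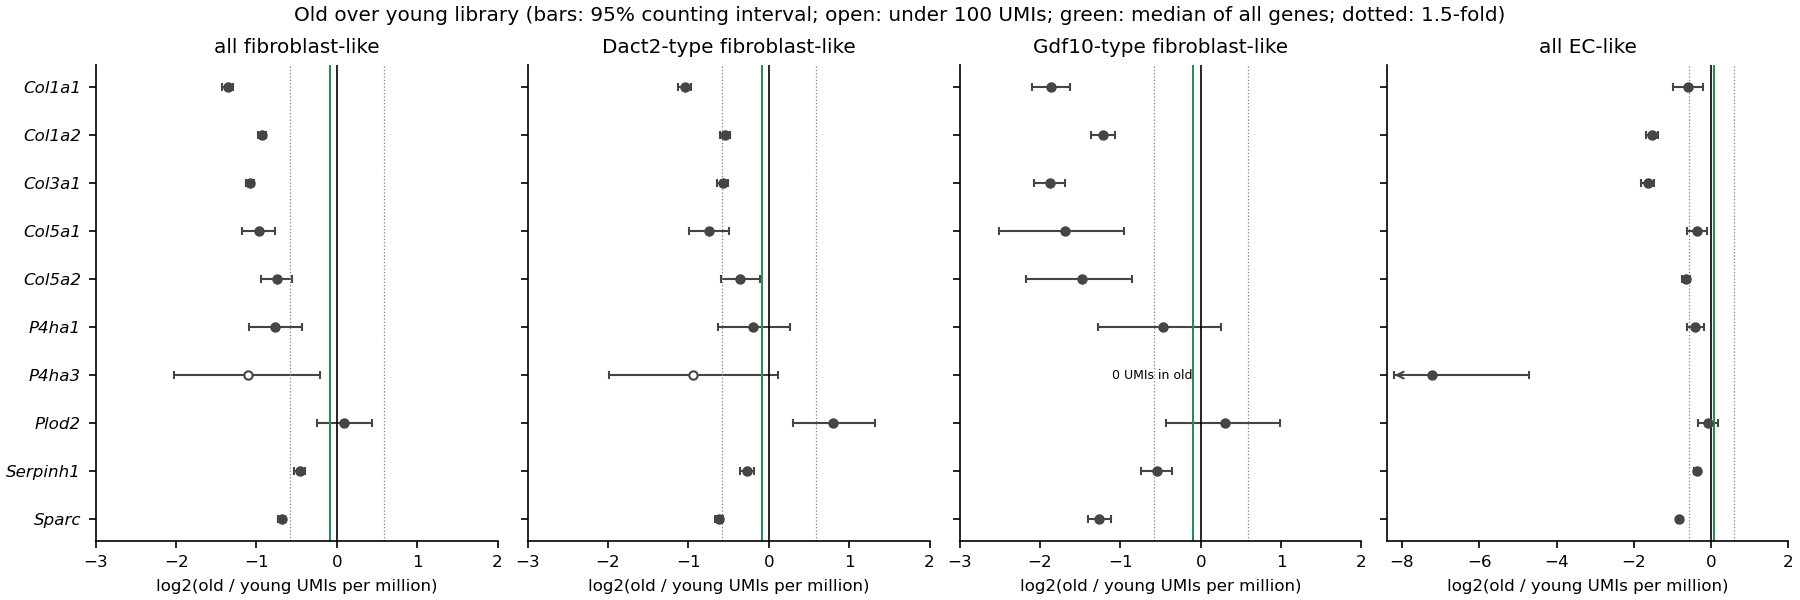
Log2 ratio of old over young level of each gene in all fibroblast-like cells, both fibroblast subtypes and all EC-like cells, with 95% counting intervals, the median of all genes in green and 1.5-fold in dotted lines. The EC-like panel has a wider scale, since P4ha3 lies at -7.23 there. The 5 collagens lie left of 0 in every panel and Plod2 right of 0 in Dact2-type cells.

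At equal depth the whole distribution over fibroblast-like cells lay lower in the old library. Every cell was thinned to 3100 UMIs, which left out 103 old and 17 young fibroblast-like cells. The 5 collagens then had a median of 11 UMIs per cell in old and 24 in young fibroblast-like cells, with quartiles of 7 and 16 in old and 16 and 36.8 in young. In Dact2-type cells the medians were 11 in old and 21 in young, and in Gdf10-type cells 13 in old (23 cells) and 31 in young (101 cells). At least 1 UMI of the 5 collagens was seen in 99.6% of old and 100% of young fibroblast-like cells. The shares of Col1a1 and Col5a2, given here for single chains, differed by more than their counting intervals. Col1a1 was seen in 83.8% (80.1 to 87.0) of old and 96.4% of young cells (up to 98.4), and Col5a2 in 27.9% (23.9 to 32.2) of old and 47.3% (40.6 to 54.1) of young cells. For Plod2 the shares were 15.6% in old and 15.8% in young cells. Before thinning, Col1a1 was in 88.3% of old and 98.7% of young cells, Col5a2 in 38.5% of old and 75.3% of young, and Plod2 in 21.3% of old and 36.4% of young. Unthinned, the 5 collagens took a median of 0.343% of a cell's UMIs in old and 0.758% in young fibroblast-like cells.

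**Figure D3:**
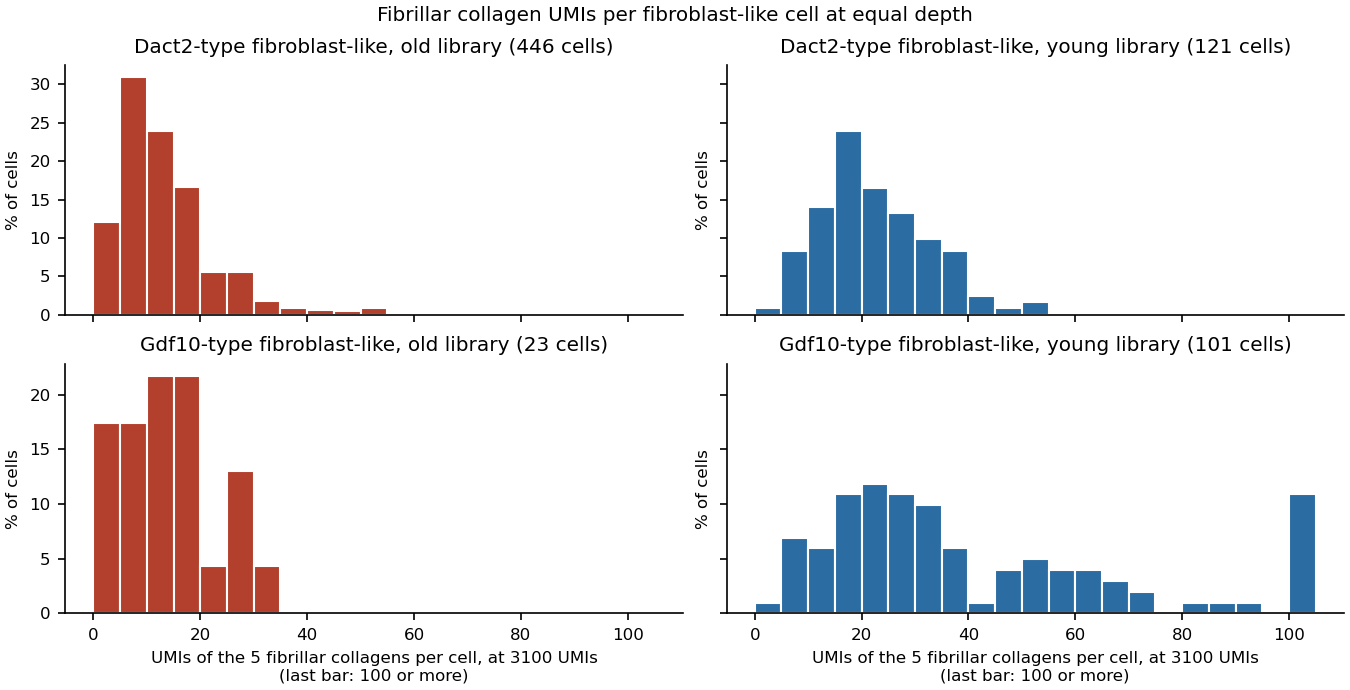
Distribution of the UMIs of the 5 fibrillar collagens per cell at 3100 UMIs, in bins of 5, for Dact2-type (top) and Gdf10-type (bottom) fibroblast-like cells of the old (left) and young (right) library, as the percentage of cells. The last bar collects 100 or more UMIs, and 11 of 101 young Gdf10-type cells stand there.

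Some young Gdf10-type cells had very high collagen. The 5 collagens took 3% or more of the UMIs in 15 of 115 young Gdf10-type cells (13.0%, exact interval 7.49 to 20.6), a limit set after the distribution was seen. In old Gdf10-type cells 0 of 61 reached it, in old Dact2-type cells 0 of 511 and in young Dact2-type cells 0 of 124. The highest of these cells gave 9.23% of its UMIs to the 5 chains. The 15 cells held 33.2% of the collagen UMIs of young Gdf10-type cells, but 11.0% of all their UMIs, and their median depth was 4818 UMIs against 7299 in the other 100 cells. Without them the summed level of young Gdf10-type cells was 9818 CPM, and the log2 ratio of old over young was -1.16. Among the 10 other genes with the highest ratio in these cells, of 1244 ranked, 3 are given here as a description, picked after their values were seen. The elastic fibre protein Eln was at 1144 CPM in them and 378 CPM in the other young Gdf10-type cells, the type VI collagen chain Col6a1 at 1551 CPM in them and 614 CPM in the others, and the gelatinase Mmp2 at 924 CPM in them and 344 CPM in the others. The 8 immediate-early genes summed to 4808 CPM in them and 9898 CPM in the others. That set was chosen after values were seen, and its genes Atf3, Ier2 and Socs3 are among the 10 with the lowest ratio in these cells.

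The wider collagen pathway in fibroblast-like cells was described with lists of genes of 100 or more UMIs. Each count of genes past 1.5-fold below stands beside 10.4% of all genes lower and 4.53% higher in this class, and a count such as 1 of 10 is near that share. Of 13 other genes of collagen modification and folding, 7 were lower past 1.5-fold, none was higher and all 13 ratios were below 0, with a median of -0.63. P4ha2, the third catalytic subunit of prolyl 4-hydroxylase, had the lowest ratio, at 39.3 CPM in old and 85.6 CPM in young cells (log2 -1.12, -1.47 to -0.78). P4hb, the shared partner subunit that also serves as a general disulphide isomerase, had the highest, at 314 CPM in old and 325 CPM in young cells (log2 -0.05, -0.19 to 0.10). Of 8 genes of procollagen cleavage and cross-linking, 3 were lower and 0 higher. Pcolce, which speeds the removal of the C-terminal propeptide, was at 487 CPM in old and 1198 CPM in young cells (log2 -1.30, -1.39 to -1.21), while its relative Pcolce2 was at 1196 CPM in old and 1352 CPM in young cells (log2 -0.18). Of 8 genes of procollagen export, 2 were lower. Creb3l1, a membrane-bound transcription factor that drives secretion of collagen in bone, was the lowest, at 29.9 CPM in old and 59.8 CPM in young cells (log2 -0.997, -1.41 to -0.59), and Ctage5 the highest (log2 0.10, -0.39 to 0.60). The subtypes differed from the pooled class for Pcolce. Its log2 ratio was -0.56 (-0.70 to -0.43) in Dact2-type cells, at 394 CPM in old and 583 CPM in young, and -0.21 (-0.38 to -0.04) in Gdf10-type cells, at 1825 CPM in old and 2110 CPM in young, so both lay closer to 0 than the pooled -1.30, with Gdf10-type cells at 10.7% of old and 48.1% of young fibroblast-like cells. P4ha2 was lower in both subtypes, at -1.15 (-1.55 to -0.76) in Dact2-type cells and -1.38 (-2.88 to -0.19, 6 old UMIs) in Gdf10-type cells.

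Genes of collagen breakdown differed in both directions. Of 9 such genes, 4 were lower and 1 was higher past 1.5-fold. The protease Ctsk had the lowest ratio, with 76.9 CPM in old and 134 CPM in young cells (log2 -0.80, -1.06 to -0.55). The inhibitor of matrix proteases Timp1 had the highest, with 217 CPM in old and 113 CPM in young cells (log2 0.94, 0.72 to 1.16). Both had ratios of opposite sign in the subtypes. Ctsk had a log2 ratio of -0.58 (-0.94 to -0.21) in Dact2-type cells, but 0.76 (0.33 to 1.18) in Gdf10-type cells, at 346 CPM (67 UMIs) in old and 204 CPM (169 UMIs) in young. Timp1 had 1.66 (1.34 to 2.01) in Dact2-type cells, at 222 CPM in old and 69.98 CPM in young, and -0.28 (-0.92 to 0.31) in Gdf10-type cells. Of 3 collagen receptor genes, 0 passed 1.5-fold, and they reached from Itgb1 (log2 -0.25) to the discoidin receptor Ddr2 (log2 0.18). Of 10 TGF-beta pathway genes, 1 was lower and 1 higher. The ligand Tgfb2 was at 108 CPM in old and 39.4 CPM in young cells (log2 1.46, 1.11 to 1.83), and the ligand Tgfb3 at 20.6 CPM in old and 41.3 CPM in young cells (log2 -1.002, -1.50 to -0.51). Within subtypes Tgfb2 had 1.32 (0.91 to 1.76) in Dact2-type cells and 0.04 (-1.54 to 1.36) in Gdf10-type cells, and Tgfb3 had -0.08 (-0.79 to 0.66) in Dact2-type cells and -0.81 (-2.08 to 0.26) in Gdf10-type cells. Of 5 HIF target genes, the group to which P4ha1 and Plod2 belong, 1 was lower (Egln1, log2 -0.81), 0 were higher, and Ndrg1 had the highest ratio (log2 0.38). Of 3 fibril-associated collagens, 2 were lower, Col16a1 the most (log2 -0.84) and Col14a1 the least (log2 -0.26, at 1150 CPM in old and 1374 CPM in young cells). None of 6 other fibrillar collagen genes reached 100 UMIs.

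EC-like cells carried the 10 genes at levels that differed widely from gene to gene. The 5 collagens summed to 189 CPM in old and 388 CPM in young EC-like cells (log2 -1.04, -1.11 to -0.97), and this was 4.11% of the fibroblast-like level in the old library and 4.03% in the young one. Col5a2 was the most abundant of the 5 chains there, with 95.1 CPM (1377 UMIs) in old and 150 CPM (1521 UMIs) in young ones (log2 -0.66, -0.76 to -0.55). Sparc was at 892 CPM in old and 1575 CPM in young ones (log2 -0.82, -0.85 to -0.79). Serpinh1 was at 185 CPM in old and 238 CPM in young EC-like cells (log2 -0.37, -0.45 to -0.29). Col5a1 was at 18.2 CPM in old and 23.6 CPM in young (log2 -0.37, -0.63 to -0.12), P4ha1 at 23.5 CPM in old and 31.2 CPM in young (log2 -0.41, -0.63 to -0.18), and Plod2 at 20.3 CPM in old and 21.7 CPM in young (log2 -0.09, -0.35 to 0.16). Col1a2 was at 34.4 CPM (499 UMIs) in old and 99.2 CPM (1008 UMIs) in young EC-like cells (log2 -1.53, -1.68 to -1.37), and Col3a1 at 33.3 CPM (483 UMIs) in old and 104 CPM (1060 UMIs) in young (log2 -1.65, -1.80 to -1.49). Col1a1, so abundant in fibroblast-like cells, was the lowest of the 5, at 7.46 CPM (108 UMIs) in old and 11.3 CPM (115 UMIs) in young EC-like cells (log2 -0.60, -0.995 to -0.21).

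All 10 genes reached 100 UMIs in EC-like cells. Of these, 6 were lower past 1.5-fold in the old library (Col1a1, Col1a2, Col3a1, Col5a2, P4ha3 and Sparc) and 0 were higher, where 4.99% of 10055 genes were lower and 5.06% higher. At 2-fold, 3 of the 10 were lower (Col1a2, Col3a1 and P4ha3) and 0 higher, where 1.95% of all genes were lower and 1.29% higher. P4ha3 reached 100 UMIs only through the young library (1 UMI in old and 105 in young), so at both folds it could only be counted as lower. The median was -0.63 over the 10 genes and 0.06 over all. The same 8 immediate-early genes summed to 2608 CPM in old and 5138 CPM in young EC-like cells, and markers of other cells differed too: the erythroid markers summed to 605 CPM in old and 25.3 CPM in young, the 7 macrophage markers to 91.8 CPM in old and 8.86 CPM in young (where Csf1r and Adgre1 were at 0), and the smooth muscle markers to 406 CPM in old and 344 CPM in young (where Cnn1 and Des were at 0). Their part was not tested. The summed collagens had a log2 ratio of -0.98 (-1.12 to -0.84) in Coch-type and -1.17 (-1.25 to -1.08) in Isl1-type cells. Past 1.5-fold, 4 of 8 genes were lower in Coch-type cells, where 5.03% of all genes were lower and 4.47% higher, and 6 of 9 in Isl1-type cells, where 4.57% were lower and 4.79% higher. After thinning to 3100 UMIs, Sparc had a UMI in 91.3% of old and 97.6% of young EC-like cells, Col5a2 in 25.9% (23.9 to 27.9) of old and 35.8% (32.8 to 38.8) of young, and Col1a2 in 9.25% (7.97 to 10.7) of old and 24.7% (22.1 to 27.6) of young. The shares before thinning were 93.7% in old and 98.9% in young for Sparc, 39.5% in old and 65.1% in young for Col5a2, and 16.4% in old and 46.9% in young for Col1a2. In old macrophage-like cells, thinned to the same depth, the shares were 32.7% for Sparc, 5.45% for Col5a2 and 9.09% (4.45 to 16.1, 110 cells) for Col1a2. The intervals of Col1a2 in old EC-like and old macrophage-like cells overlap, so at this depth the share in old EC-like cells cannot be told apart from background.

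**Figure D4:**
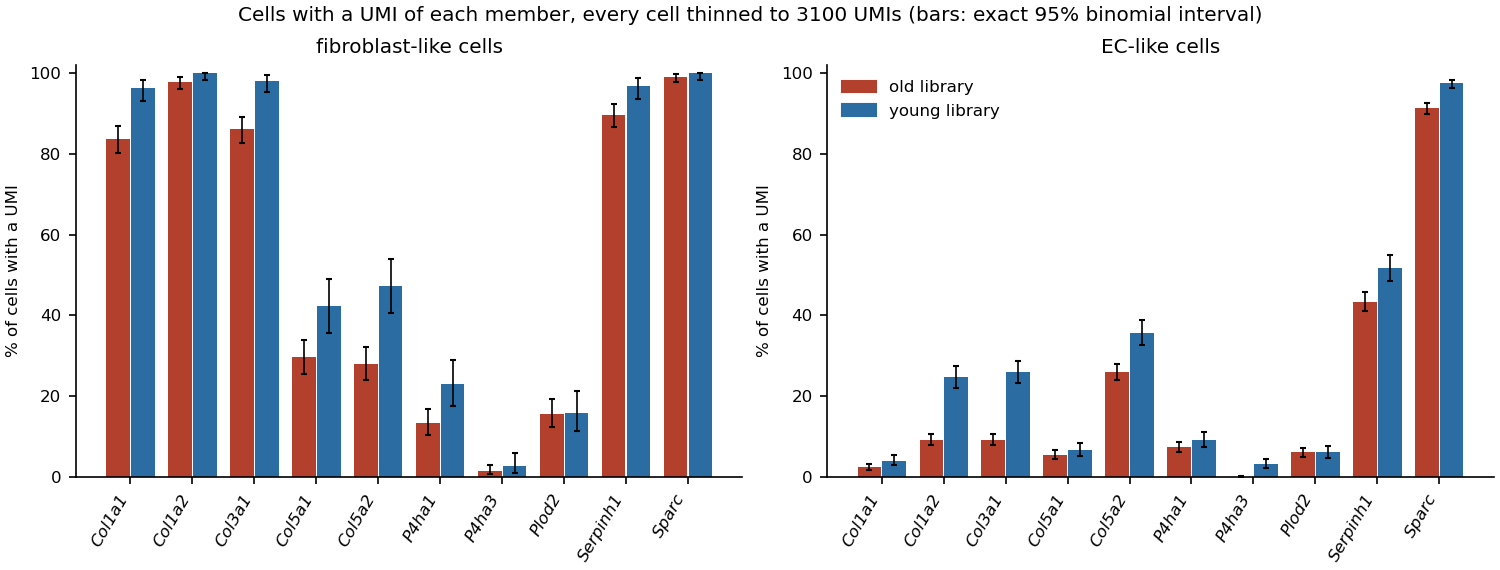
Percentage of fibroblast-like (left) and EC-like (right) cells with at least 1 UMI of each gene, every cell thinned to 3100 UMIs, old library in red and young library in blue, with exact 95% binomial intervals. In EC-like cells Col1a2 and Col3a1 show the widest gaps between the libraries, Sparc is seen in nearly all cells and P4ha3 in 0 of 1860 old and 31 of 990 young cells.

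Free fibroblast RNA, which gets into droplets with other cells, was weighed with 9 fibroblast marker genes that endothelium is not known for (Dcn, Lum, Dpt, Serpinf1, Clec3b, Pdgfra, Mfap5, Medag and Pi16). In old EC-like cells these stood at 1.15% (Medag) to 8.93% (Mfap5) of their fibroblast-like level, with 4.52% for their sum. In young EC-like cells they stood at 0.698% (Dpt) to 7.83% (Mfap5), with 2.66% for their sum. Of the 10 genes, 3 fell inside or under this range in both libraries. Col1a1 stood at 0.820% in old and 0.487% in young, under the whole list in both. Col1a2 stood at 1.81% in old and 2.74% in young, and Col3a1 at 2.19% in old and 3.24% in young, both inside the range. The other genes, P4ha3 in the old library aside, stood above it. Col5a2 was at 67.5% in old and 63.3% in young, P4ha1 at 47.8% in old and 37.3% in young, and Plod2 at 32.1% in old and 36.5% in young. Sparc was at 26.7% in old and 29.3% in young, Col5a1 at 16.1% in old and 10.6% in young, and Serpinh1 at 15.6% in old and 14.6% in young. Not every gene of the list is free RNA alone: Serpinf1 was at 156 CPM in old and 150 CPM in young Coch-type cells, but at 52.5 CPM in old and 46.2 CPM in young Isl1-type cells.

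**Figure D5:**
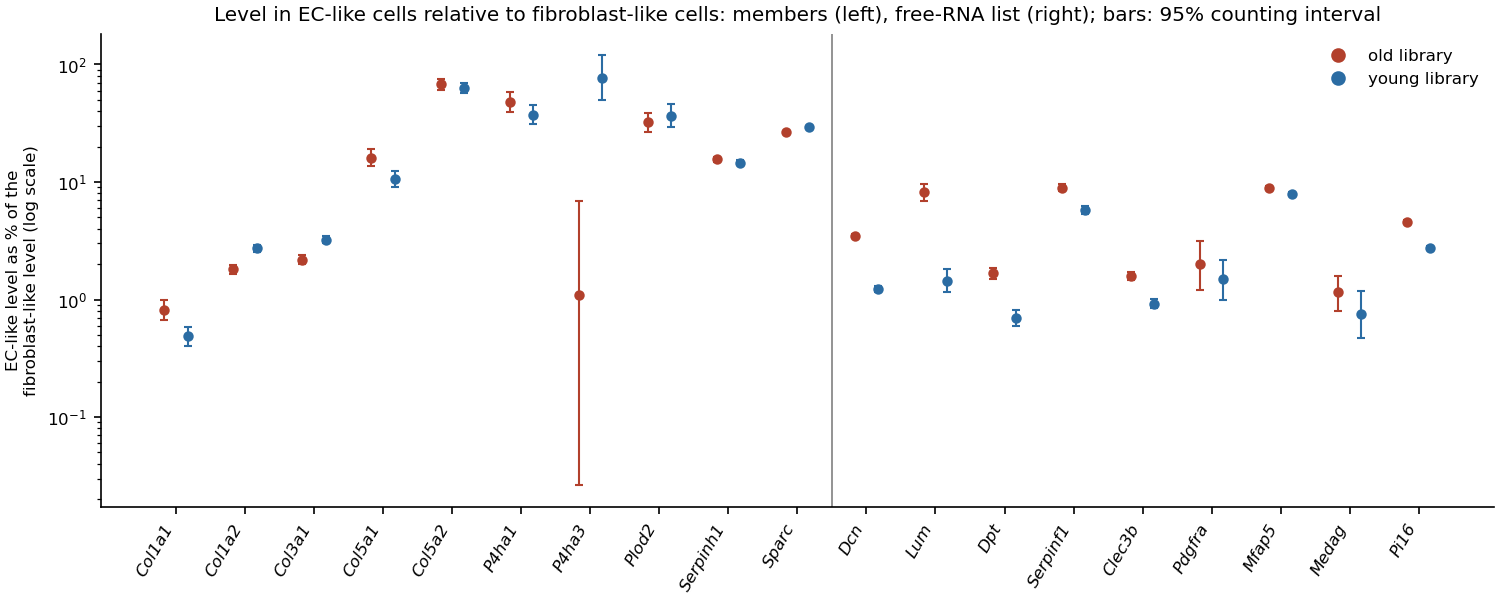
Level in EC-like cells as a percentage of the level in fibroblast-like cells of the same library (log scale), for the 10 genes (left of the line) and the 9 genes of the free-RNA list (right), old library in red and young library in blue, with 95% counting intervals. Col1a1, Col1a2 and Col3a1 lie among or under the list, and Col5a1, Col5a2, P4ha1, Plod2, Serpinh1 and Sparc above it in both libraries.

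Macrophage-like cells gave a second measure of free RNA, mainly in the old library, which held 155 of them. EC-like cells there had 1.14 times the macrophage-like level of Col1a1 (0.475 to 3.59), 0.879 times that of Col1a2 (0.608 to 1.32) and 1.22 times that of Col3a1 (0.787 to 1.98), so these intervals include 1. They had 5.69 times the level of Sparc (4.76 to 6.87), 4.55 times that of Col5a2 (2.79 to 7.98), 4.29 times that of Serpinh1 (3.04 to 6.24), 5.18 times that of Plod2 (1.76 to 25.3) and 4.65 times that of Col5a1 (1.57 to 22.7). The genes of the free-RNA list were not all at 1 on this measure. Their sum stood at 1.80 times the macrophage-like level (1.64 to 1.99), from Clec3b at 0.730 times (0.551 to 0.987) to Mfap5 at 3.14 times (2.52 to 3.96), and the interval of Mfap5 overlaps those of Col5a2, Serpinh1, Plod2 and Col5a1 but not that of Sparc. P4ha1 differed from the other processing genes, at 0.820 times (0.533 to 1.33), with an interval on both sides of 1. The young library held only 13 macrophage-like cells. Young EC-like cells had 0.913 times their level of Col1a1 (0.247 to 7.63), 1.14 times that of Col1a2 (0.678 to 2.10) and 1.29 times that of Col3a1 (0.753 to 2.44). These intervals also include 1. Those of Plod2 at 1.16 times (0.393 to 5.69), Col5a1 at 1.90 times (0.521 to 15.8) and P4ha1 at 2.52 times (0.691 to 20.9) included 1 too. Col5a2 stood at 8.05 times (2.75 to 39.1), Serpinh1 at 2.56 times (1.55 to 4.57) and Sparc at 2.49 times (2.05 to 3.05). The list gene Serpinf1 stood at 2.61 times (1.20 to 7.14) in the young library. Col1a2 and Col3a1 were lower in old than in young EC-like cells. Of the 7 free-RNA list genes with 100 or more UMIs there, none was lower past 1.5-fold and 3 were higher. Among all genes, 4.99% were lower and 5.06% higher by that much. The part of free RNA in the ratios of both collagens was not tested. Dcn was at 235 CPM in old and 118 CPM in young EC-like cells (log2 0.997), and Pi16 at 299 CPM in old and 300 CPM in young. In fibroblast-like cells the same Dcn was at 6708 CPM in old and 9637 CPM in young. In young EC-like cells Col1a2 was also unequal between types, at 67.8 CPM in Coch-type and 130 CPM in Isl1-type cells. Col3a1 was closer between them, at 100 CPM in Coch-type and 108 CPM in Isl1-type cells. The free-RNA list summed to 757 CPM in young Coch-type and 1112 CPM in young Isl1-type cells. Leaving out EC-like cells with UMIs of 2 or more list genes kept only 444 old and 112 young cells, in which 3 of the 10 genes had 100 UMIs and none of these was lower past 1.5-fold. Col1a2 and Col3a1 had under 100 UMIs in these cells. Over 10 alternatives that gave a ratio, this one among them, their log2 ratios were -1.84 to -1.48 (Col1a2) and -1.71 to -1.59 (Col3a1). Subtracting free fibroblast RNA gave no ratio for either, since it took off more than their level in old EC-like cells.

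P4ha3 showed the widest gap of the 10 genes in EC-like cells. It had 1 UMI in 2424 old EC-like cells and 105 UMIs in 1095 young ones, 0.0690 CPM in old and 10.3 CPM in young, a log2 ratio of -7.23 with an interval from -12.54 to -4.72. In young cells 83 of these UMIs lay in Coch-type cells (16.7 CPM) and 22 in Isl1-type cells (4.25 CPM). In old Isl1-type cells there were 0 UMIs. Before thinning, 1 of 2424 old EC-like cells (0.0413%) and 8.04% of young ones had a UMI. At 3100 UMIs a molecule was found in 0 of 1860 old EC-like cells, which allows a share of cells with a UMI of up to 0.161% (3 counts of 1860, with an exact upper bound of 0.198%), and in 3.13% (2.14 to 4.42) of young ones. The young EC-like level was 76.0% (49.7 to 120) of the young fibroblast-like level, far above the free-RNA list. In 13 young macrophage-like cells there was 1 UMI, which is 6.20 CPM. Young EC-like cells had 1.67 times that level, with an interval (0.293 to 66.4) that includes 1, so the 2 classes cannot be told apart. The old library's EC-like level was 1.09% of its fibroblast-like level, with an interval from 0.0263 to 6.87 that covers 1 UMI only.

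The counts of list genes in EC-like cells stand beside 4.99% of all genes lower and 5.06% higher past 1.5-fold, and counts such as 1 of 9 and 1 of 11 are near that share. Of the lists, 14 other modification and folding genes had 100 UMIs, and 4 were lower past 1.5-fold and 0 higher, from the retrieval receptor Kdelr3 (19.95 CPM in old and 35.5 CPM in young, log2 -0.83, -1.06 to -0.61) to the ion channel of the endoplasmic reticulum Tmem38b (log2 0.30, -0.04 to 0.64). Of 5 cleavage and cross-linking genes, 2 were lower. Lox, the cross-linking lysyl oxidase, was at 97.2 CPM in old and 204 CPM in young EC-like cells (log2 -1.07, -1.17 to -0.97), and Loxl1 at 14.4 CPM in old and 15.4 CPM in young (log2 -0.10). In fibroblast-like cells Lox was at 46.9 CPM in old and 60.3 CPM in young, so its level there was under that of EC-like cells. Of 9 export genes 1 was lower, the coat protein Sec24d (log2 -0.68, -0.89 to -0.47), and Klhl12 had the highest ratio (log2 0.34). Of 6 turnover genes 0 passed 1.5-fold, from the gelatinase Mmp2 (log2 -0.47) to Timp1 (log2 0.52). Of 4 receptor genes 0 passed, from Itgb1 (log2 -0.40) to Itga1 (log2 0.26). Of 11 TGF-beta pathway genes 1 was lower, the inhibitor Smad7 (162 CPM in old and 271 CPM in young, log2 -0.74, -0.82 to -0.66), and Tgfbr3 had the highest ratio (log2 0.45). Of 10 HIF targets 2 were lower and 1 higher, from the glycolytic enzyme Pgk1 (3.31 CPM in old and 18.8 CPM in young, log2 -2.50, -2.99 to -2.04) to the kinase Pdk1 (10.9 CPM in old and 5.71 CPM in young, log2 0.93, 0.49 to 1.39). The 1 fibril-associated collagen with 100 UMIs, Col14a1, was at 23.1 CPM in old and 18.4 CPM in young (log2 0.33, 0.07 to 0.59).

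The other classes were small. The 11 smooth muscle-like cells, all from the old library, held the 5 collagens at 993 CPM (65 UMIs, 767 to 1266), Sparc at 1605 CPM and Serpinh1 at 550.1 CPM. Old macrophage-like cells held the 5 collagens at 97.9 CPM (77.0 to 123). In 37 old erythroid-like cells there were 6 UMIs of the 5 collagens. A cluster of T or NK-like cells, which also held B cell and cycling genes, reached 813 CPM in the old library, against 1493 CPM in 10 young cells, but 5 of its 123 old cells held 282 of the 318 collagen UMIs, so its level is that of a few barcodes.

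The proportion of the chains differed between classes. There were 0.478 UMIs of Col1a1 per UMI of Col1a2 in old (0.456 to 0.5002) and 0.640 in young fibroblast-like cells (0.617 to 0.664). In EC-like cells the proportion was 0.216 in old (0.174 to 0.267) and 0.114 in young (0.0932 to 0.138), below the fibroblast-like value in each library. Macrophage-like cells had 0.167 in old (0.0505 to 0.434) and 0.143 in young (0.0158 to 0.622). Within single fibroblast-like cells at 3100 UMIs, the chains went together most in young Gdf10-type cells, where Spearman's rho over 101 cells was 0.82 for Col1a1 with Col1a2 and 0.75 for Col1a1 with Col3a1. In old Dact2-type cells the same rho values were 0.41 and 0.43 over 446 cells. These are descriptions of cells that share a library, and lower counts give lower values.

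Over 11 class or subtype units of 20 or more cells, the genes whose level was most like that of the summed collagens were Col6a2 (Pearson's r of log2 levels 0.987), Akap12 (0.986), Tuba1a (0.985), Tnfrsf12a (0.984) and Bmp1 (0.982), among 6974 genes with 500 or more UMIs. The units share libraries, and the classes contrast strongly, so the values mainly describe the split between fibroblast-like and other cells. Among the 10 genes, Serpinh1 had 0.972, Sparc 0.908, P4ha1 0.880, Plod2 0.842, Col5a2 0.790 and P4ha3 0.617. Col6a2, a type VI collagen chain, was at 195 CPM in old and 459 CPM in young fibroblast-like cells (log2 -1.23, -1.38 to -1.08), and Bmp1, which cuts the C-terminal propeptide, at 184 CPM in old and 256 CPM in young (log2 -0.47, -0.65 to -0.30).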

How the data were processed

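The values are UMI counts, whole numbers for each gene in each barcode, deposited by the authors without normalization. Cell Ranger and build GRCm38 are named per the submitters' processing notes. Their versions and the annotation were not stated. The kit was version 2, per the labels' protocols. Barcodes under 200 genes or over 10% mitochondrial UMIs were left out (72 old and 1 young). Scrublet called 6 old and 6 young doublets, too few to have worked as a filter, and these were removed. Cells were normalized to 10000 UMIs and clustered jointly (scanpy 1.11.5, 2000 variable genes without the 10 genes, 30 components, 15 neighbours, Leiden resolution 0.5). Clusters were named by the marker list with the highest mean share of positive cells, given 3 or more markers in 25% of cells. Counts were summed per class and scaled to the class total. Ratios carry exact conditional binomial and shares Clopper-Pearson 95% intervals, and a count of 0 allows up to 3 counts. Genes past 1.5-fold with 100 or more UMIs were counted. From each gene list the highest and lowest ratio are named. Members, lists and markers were chosen with earlier results of these data known. The immediate-early genes and the cells of very high collagen were chosen after values were seen. The ratio and its interval were checked on simulated counts. Sequences are from GENCODE vM21. Python 3.11.15, numpy 2.4.6, scipy 1.17.1 and pandas 2.3.3 were used.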

Additional observations from a re-analysis of the deposited data

How the results depend on the processing

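In fibroblast-like cells the ratio of the summed collagens stayed below 0 under every alternative run. It was -1.34 as the mean of each cell's share, -0.98 with the median of all genes set to 0, -1.16 without cells over 3 times the median depth, and -1.55 without cells holding 2 or more endothelial markers, which left 131 old and 75 young cells. Chosen after seeing the data, subtraction of free endothelial RNA gave -0.98 and equal weights for both subtypes -1.18. The median of the genes was -1.02 by each cell's share and -1.35 without the marker-holding cells. At a fold of 2, 2 genes were lower in fibroblast-like cells (2.66% of all genes) and 3 in EC-like cells (1.95%). Without EC-like cells holding 2 or more fibroblast markers, 3 genes had 100 UMIs, their median was -0.38 and 0 were lower past 1.5-fold. The ratio of Col1a1, which had under 100 UMIs in these cells, reversed to 0.55. Over 10 alternatives that gave a ratio, this one among them, the summed collagens in EC-like cells had log2 ratios of -1.11 to -0.98. With free fibroblast RNA subtracted, 2 of 7 genes were lower past 1.5-fold in EC-like cells. The share of all genes under this subtraction was not computed. Col1a2, Col3a1 and P4ha3, the 3 genes lower at a fold of 2 in the main run, had no ratio there. Col1a1, counted among the 7, fell below 0 in both libraries, so its ratio there is not usable. No ratio could be given for the summed collagens, since their sum fell below 0 in the old library. Col5a1 and Col5a2 still had a ratio. The level of EC-like over fibroblast-like cells in the old library was 4.57% by each cell's share, 4.38% without the deepest cells and 4.62% without the marker-holding cells. In the young library it was 3.79% by each cell's share, 3.12% without the marker-holding cells and 1.37% with free RNA subtracted. The cause of these shifts was not tested. Of 110 ratios of single genes in fibroblast-like cells, 34 left the interval of the main value and 0 reversed, and of 107 in EC-like cells 10 did and 1 reversed. Of 40 shares of cells, 32 left their interval when cells were thinned to 2000 UMIs in place of 3100. Fewer UMIs per cell lower such shares by themselves, so this count does not bear on the difference between the libraries. With 1 library per age, no library could be left out. No paired analysis was possible because each age has a single library. Depth limits P4ha3 in fibroblast-like cells and, in old Gdf10-type cells, Col5a1, Col5a2, P4ha1 and Plod2, with 16 to 23 UMIs each, and P4ha3, with 0.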
